A study of Oryctolagus cuniculus with 134 samples.

Results

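Gene expression in the aorta of rabbits that received a cholesterol-rich diet and cardiac irradiation (IR/CHT) was compared with that of rabbits on chow (Ctrl). The libraries were chosen by their labels alone: those of the aorta with the treatment Cholesterol+IR, 7 in number, and those of the aorta with the treatment Control, also 7. Together they make 14 of the 134 libraries of the study, each from a different rabbit, and all belong to plate 2 of the deposited counts. The study asked how dietary lipids and irradiation act on the aorta and on the heart valves. All animals were male New Zealand White rabbits, 12 weeks old at the start of a 16-week protocol. Ctrl rabbits ate chow and received no vitamin D2. IR/CHT rabbits ate a diet with 0.3% cholesterol, received vitamin D2 at a dose set per body weight for the first 15 days, and were irradiated after 8 weeks of diet with X-rays aimed at the aortic valve and the thoracic aorta, 24 Gy in 3 fractions of 8 Gy given 48 h apart. The CHT group (6 libraries) had the same diet and vitamin D2 without irradiation and is used below to set the irradiated aortas beside the unirradiated ones. Because neither irradiated rabbits on chow nor rabbits given vitamin D2 alone are among the libraries used here, cholesterol, vitamin D2 and irradiation cannot be told apart in IR/CHT against Ctrl.

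Cholesterol that enters the arterial wall in excess is taken up by macrophages, which store it as esters in lipid droplets and become foam cells. Sterol excess in a cell turns on the liver X receptors (LXR), whose targets export cholesterol, and turns off SREBP2, the factor that drives cholesterol synthesis. Smooth muscle cells of the arterial media can lose their contractile proteins, divide and make matrix, and ionizing radiation activates p53, which induces genes of cell cycle arrest and DNA repair.

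The 14 libraries held between 16923324 and 20915814 read pairs counted on genes, so that a level of 1 CPM (the read count scaled to library size) was about 16.9 counts in the smallest library, where counting alone gives an SD of 24.3%. The first principal component of the 14 profiles took 62.2% of the variance and separated the groups. Smooth muscle myosin MYH11 was abundant in every library, at 59998, 74226 and 83270.5 CPM in Ctrl (lowest, median and highest of the 7 libraries, the form used for all levels below) and 8619, 23348 and 45357 CPM in IR/CHT, as the label aorta requires. Some IR/CHT libraries also held transcripts of other tissues. The 8 heart muscle markers found summed to 58.0, 96.6 and 141 CPM in Ctrl and 45.4, 146 and 2781 CPM in IR/CHT, and the 2 highest were L566, with 2123 CPM of the myosin MYH7, and L580, with 247.5 CPM, against at most 29.7 CPM in Ctrl. MYH7 reads may be shared with its near-identical copy MYH6. L566 also had the lowest MYH11 level. Of the 7 tested heart muscle markers, 5 were higher in IR/CHT with all libraries, 2 without L566 and 1 without L566 and L580. Transcripts that mark the valve leaflet (TBX20, WNT16, RSPO2, FBN2, LEF1, GATA4 and MEOX1), a group chosen after the values were seen, summed to 15.2, 17.9 and 30.0 CPM in Ctrl and 76.8, 114 and 137 CPM in IR/CHT, without overlap. The level was also above that of Ctrl in CHT, at 36.1, 59.3 and 71.6 CPM, and reached 70.6 CPM in the Lard group, which had 5% lard in the diet and the same vitamin D2, so that it was not particular to IR/CHT. The part of heart muscle or leaflet tissue in the results below was not tested, and counts of the main lists without L566 and L580 are given at the end of the comparison with Ctrl.

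In IR/CHT against Ctrl, the macrophage markers rose in 14 of 14 cases, foam cell genes in 20 of 21, interferon-induced genes in 13 of 14 and mitosis genes in 36 of 38, while contractile genes of smooth muscle fell in 21 of 26 cases, sterol synthesis and uptake genes in 11 of 18 and muscle ion channels and pumps in 12 of 20. Of 14777 genes tested, 3274 were higher (22.2%) and 1796 lower (12.2%) in IR/CHT, which means that the fold change exceeded 1.5 and the adjusted p-value lay under 0.05 (differentially expressed genes, DEGs). In 1727 genes (11.7%) all 7 IR/CHT libraries lay above all 7 Ctrl libraries, and in 1111 (7.52%) all lay below. The median log2 fold change over all genes was 0.00. Without L566 and L580, 2926 genes were higher and 1522 lower. DESeq2 called 3829 and 1801 genes, and with 1.5-fold as the null of the test (edgeR's glmTreat) 2165 and 657 were called. Genes with a symbol made up 10332 of the genes tested, and 3727 of the 5070 DEGs.

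Of the genes that rose and have a symbol, the 10 with the lowest p-values were ABCA1 (3.95), HLA-DMA (5.46), LY86 (8.001), CD14 (5.43), GGH (4.29), DOCK10 (3.02), FCER1G (5.53), EPSTI1 (3.73), CD300LF (10.32) and LYN (3.46), with their log2 fold changes in parentheses. ABCA1, the transporter that hands cellular cholesterol to apolipoprotein A-I, stood at 42.7, 58.7 and 63.5 CPM in Ctrl and at 525, 877 and 1253 CPM in IR/CHT. The lowest irradiated library was above the highest on chow (log2 fold change 3.95 ± 0.19 (SE), adjusted p = 7.44e-14, edgeR's quasi-likelihood test with Benjamini-Hochberg adjustment, as for all adjusted p-values below). CD14, the co-receptor for lipopolysaccharide on monocytes and macrophages, was at 0.933, 2.19 and 3.24 CPM in Ctrl and 32.4, 102 and 128 CPM in IR/CHT (log2 fold change 5.43 ± 0.38 (SE), adjusted p = 1.06e-10). Again the groups did not overlap. HLA-DMA, which loads peptides on MHC class II molecules, was at 0.663, 1.06 and 1.51 CPM in Ctrl and 26.6, 47.4 and 84.3 CPM in IR/CHT (log2 fold change 5.46 ± 0.35 (SE), adjusted p = 5.55e-11). LY86, a partner of the receptor CD180, and CD300LF, an inhibitory receptor of myeloid cells, had at most 3 counts in every Ctrl library, and against that floor of 3 counts per library they were at least 95.1-fold and at least 110.4-fold higher. Their fitted fold changes depend on the prior count.

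Among the genes that fell, the 10 with the smallest p-values were FDFT1 (-2.03), SQLE (-2.09), MSMO1 (-1.82), DNM1L (-1.19), HIVEP2 (-1.15), PDK3 (-0.87), DZIP1 (-1.53), DDR2 (-1.40), CDS2 (-1.32) and LAMA4 (-1.28). The first 3 are enzymes of cholesterol synthesis, DNM1L is the GTPase of mitochondrial fission, DDR2 a collagen receptor and LAMA4 a laminin chain. DNM1L was at 117, 142 and 171.1 CPM in Ctrl and 45.8, 60.2 and 79.7 CPM in IR/CHT (log2 fold change -1.19 ± 0.13 (SE), adjusted p = 7.65e-08). DDR2 was at 290.3, 316 and 369.9 CPM in Ctrl and 67.7, 110.4 and 193.2 CPM in IR/CHT (log2 fold change -1.40 ± 0.17 (SE), adjusted p = 1.87e-07). In both genes, all 7 IR/CHT libraries lay below all 7 Ctrl libraries.

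**Figure D1:**
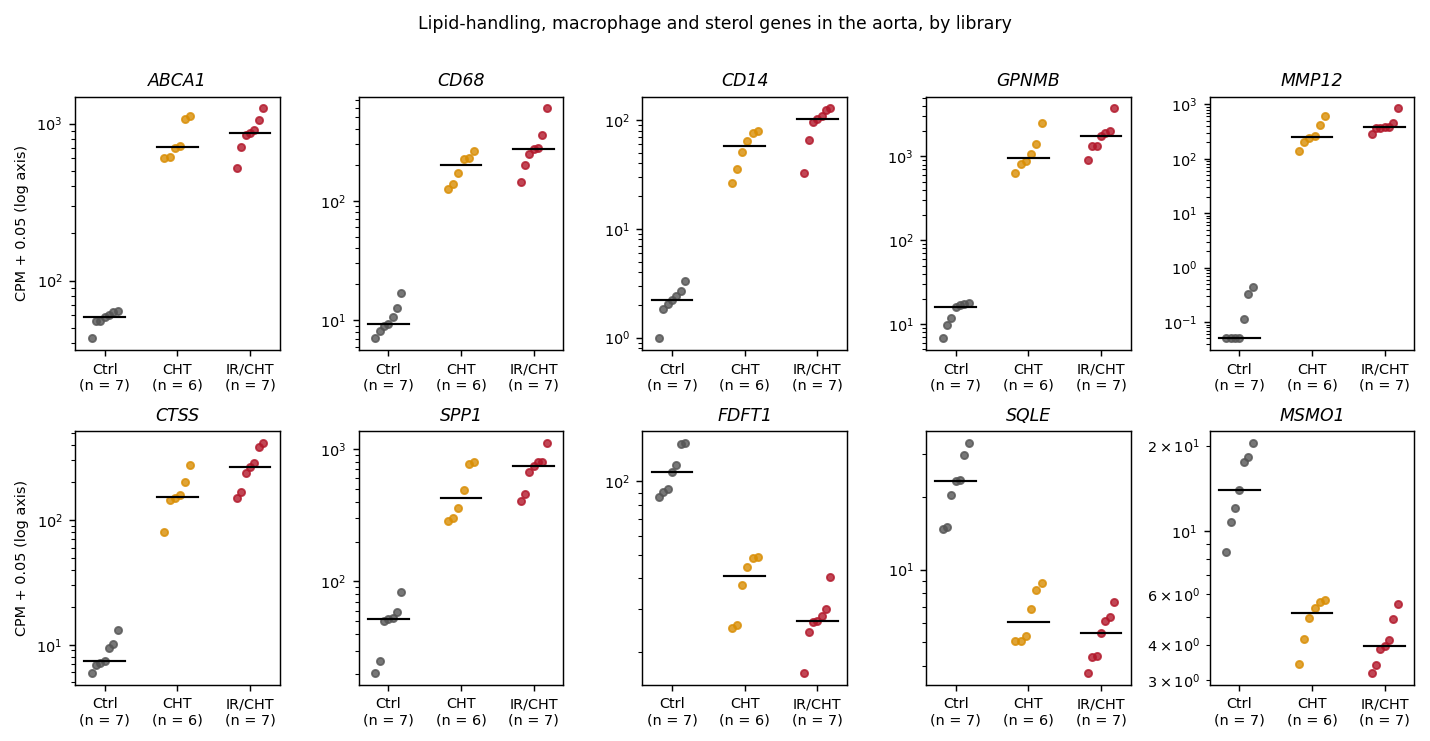
Level of 10 genes in each aorta library of the Ctrl, CHT and IR/CHT groups, in CPM plus 0.05 on a log axis, with the median of each group as a line. ABCA1, CD68, CD14, GPNMB, MMP12, CTSS and SPP1 lie higher in all IR/CHT libraries than in any Ctrl library, and FDFT1, SQLE and MSMO1 lie lower in all of them.

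Macrophage markers were higher without exception. All 14 tested markers, of 14 on the list, rose, beside 22.2% of all genes, and their median log2 fold change was 3.85, beside 0.00 over all genes. In 10 of the 14, all IR/CHT libraries lay above all Ctrl libraries, beside 11.7% of all genes. Their summed level was 67.3, 133 and 290.1 CPM in Ctrl, 474, 1066 and 1219 CPM in CHT and 719.6, 1473 and 2635 CPM in IR/CHT. CD68, a glycoprotein of macrophage lysosomes, was at 7.02, 9.25 and 17.0 CPM in Ctrl and 145, 273.5 and 595 CPM in IR/CHT (log2 fold change 4.82 ± 0.43 (SE), adjusted p = 2.21e-09). CSF1R, the receptor that macrophages need to survive, was at 11.9, 18.1 and 34.3 CPM in Ctrl and 115, 232.2 and 369 CPM in IR/CHT (log2 fold change 3.40 ± 0.34 (SE), adjusted p = 9.93e-09). The scavenger receptor for haemoglobin, CD163, changed less, from 3.73, 11.9 and 26.1 CPM to 29.9, 38.1 and 81.1 CPM (log2 fold change 1.82 ± 0.33 (SE), adjusted p = 5.88e-05). In RNA from whole tissue, fewer or more cells of a type cannot be told apart from less or more RNA per cell.

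Genes that mark lipid-laden macrophages rose with them. Of 21 foam cell and lysosomal genes tested, 20 rose and none fell, with a median log2 fold change of 3.13, and the exception was NPC1 (log2 fold change 0.51 ± 0.13 (SE), adjusted p = 0.00233), which moves cholesterol out of lysosomes. GPNMB, a glycoprotein of lipid-loaded macrophages, was at 6.69, 15.8 and 17.8 CPM in Ctrl and 908, 1772 and 3760.1 CPM in IR/CHT (log2 fold change 7.09 ± 0.65 (SE), adjusted p = 3.07e-09). MMP12, the macrophage elastase, was listed at 0 in 4 of the 7 Ctrl libraries and reached 0.398 CPM in the highest, but stood at 281, 375 and 844 CPM in IR/CHT (adjusted p = 1.44e-08). CTSS, a cathepsin that cleaves the invariant chain, was at 5.87, 7.41 and 13.01 CPM in Ctrl and 150.8, 267.03 and 414 CPM in IR/CHT (log2 fold change 4.99 ± 0.37 (SE), adjusted p = 1.75e-10). LIPA, which hydrolyses cholesteryl esters in lysosomes, and PLIN2, a coat protein of lipid droplets, had log2 fold changes of 2.81 ± 0.21 (SE), adjusted p = 2.34e-10 and 2.05 ± 0.19 (SE), adjusted p = 4.25e-09. SPP1, which encodes osteopontin, was at 20.2, 51.8 and 83.3 CPM in Ctrl and 407, 749.6 and 1111 CPM in IR/CHT (log2 fold change 3.86 ± 0.62 (SE), adjusted p = 1.31e-05). Among the LXR targets 3 of 5 tested rose, namely ABCA1, NR1H3 (2.95), which encodes LXR alpha itself, and LPCAT3 (1.11), a phospholipid acyltransferase. MYLIP, a ubiquitin ligase, missed the fold threshold (log2 fold change 0.33 ± 0.13 (SE), adjusted p = 0.0334).

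Of 18 sterol synthesis and uptake genes tested, 11 fell, beside 12.2% of all genes, and 1 rose (median log2 fold change -0.89). FDFT1, squalene synthase, was at 86.6, 109.6 and 144 CPM in Ctrl and 16.3, 26.7 and 40.4 CPM in IR/CHT (log2 fold change -2.03 ± 0.19 (SE), adjusted p = 5.80e-09). SQLE, which oxidises squalene in the next step, was at 14.7, 23.1 and 33.3 CPM and 3.68, 5.42 and 7.27 CPM (log2 fold change -2.09 ± 0.21 (SE), adjusted p = 1.42e-08). The groups did not overlap in either of these enzymes. The lipid transporter STARD4 was the gene that rose (log2 fold change 0.93 ± 0.24 (SE), adjusted p = 0.00235). Early enzymes of the pathway, MVK, PMVK and FDPS, were not called, with log2 fold changes of 0.45, -0.02 and -0.51. The CHT aortas, which were not irradiated, had summed levels of this list of 192.3, 216 and 241.7 CPM, against 202, 216 and 234.6 CPM in IR/CHT and 332, 434 and 599 CPM in Ctrl.

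Antigen presentation, chemokine and leukocyte adhesion genes were higher, in shares to be read beside 22.2% of all genes. Of 8 MHC class II genes tested, 7 rose, with a median log2 fold change of 4.73 (4.25 with floor genes at their bound). CD74, the invariant chain, was at 17.9, 23.8 and 52.5 CPM in Ctrl and 469, 1018 and 1276 CPM in IR/CHT (log2 fold change 5.09 ± 0.42 (SE), adjusted p = 5.49e-10). Its transcriptional activator CIITA was low, at 0.166, 1.26 and 3.24 CPM and 5.87, 12.8 and 21.8 CPM (log2 fold change 3.36 ± 0.69 (SE), adjusted p = 2.57e-04). Of 18 chemokines and receptors found, CCL20, CXCL13 and CXCR3 did not pass the filter on low counts. Genes near 0 in Ctrl could pass it through the groups in which they are high. Of the 15 tested 13 rose, and CCL21, a chemokine of lymphatic vessels, fell (log2 fold change -1.70 ± 0.38 (SE), adjusted p = 5.35e-04). CXCL10, an interferon-induced ligand of CXCR3, was at 0, 0.224 and 0.568 CPM in Ctrl and 6.54, 12.03 and 19.2 CPM in IR/CHT (log2 fold change 5.54 ± 0.58 (SE), adjusted p = 2.42e-08). CCL2, which attracts monocytes, was at 0.546, 1.01 and 1.30 CPM and 7.17, 11.1 and 21.8 CPM (log2 fold change 3.86 ± 0.41 (SE), adjusted p = 3.51e-08), and the receptor CXCR4 was at 0.164, 0.329 and 0.663 CPM and 9.38, 20.6 and 32.1 CPM (log2 fold change 5.79 ± 0.46 (SE), adjusted p = 4.52e-10). The groups did not overlap in these 3 genes. All 11 leukocyte integrin and adhesion genes tested rose, among them ITGB2, the chain shared by the beta-2 integrins (6.63), its partner ITGAM (7.11) and the endothelial ligand ICAM1 (2.90). All 5 genes of the phagocyte oxidase and its regulators rose, with CYBB, its catalytic subunit, at a log2 fold change of 3.95. Of 11 complement genes found, C5 and C6 did not pass the filter. All 9 tested rose, with the anaphylatoxin receptors C3AR1 (4.98) and C5AR1 (5.02) first by p-value.

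Of 11 cytokine genes found, CSF2, CSF3, IFNG, IL12B and IL23A did not pass the filter on low counts. Of the 6 tested, 5 were higher, a count that was 3 when only the libraries of these 2 groups were fitted. TNF was at 0, 0.0546 and 0.435 CPM in Ctrl and 0.775, 1.87 and 2.64 CPM in IR/CHT (log2 fold change 4.09 ± 0.64 (SE), adjusted p = 9.68e-06). IL1RN, the natural antagonist of interleukin-1, was at 0.0549, 0.337 and 0.795 CPM and 5.39, 11.1 and 19.1 CPM (log2 fold change 4.98 ± 0.58 (SE), adjusted p = 1.38e-07). IL1B was at 0, 0.0568 and 0.248 CPM and 0.108, 0.769 and 0.920 CPM, with overlap between the groups (log2 fold change 2.74 ± 0.74 (SE), adjusted p = 0.00311). Interferon-induced genes rose in 13 of 14 cases tested (median log2 fold change 3.03). OAS2, which makes oligoadenylates in response to double-stranded RNA, was at 0.0553, 0.168 and 0.839 CPM in Ctrl and 12.3, 27.1 and 52.2 CPM in IR/CHT (log2 fold change 6.59 ± 0.66 (SE), adjusted p = 1.22e-08). OASL was at 0, 0.0559 and 0.284 CPM and 9.71, 18.6 and 40.2 CPM (log2 fold change 8.09 ± 0.78 (SE), adjusted p = 6.63e-09). In both, every irradiated aorta was above every aorta on chow.

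Markers of other leukocytes were at low levels. Of 11 T and NK cell markers found, 6 passed the filter on low counts, and all 6 were higher. CD5 was at 0, 0.111 and 1.12 CPM in Ctrl and 1.87, 2.76 and 8.41 CPM in IR/CHT (log2 fold change 3.33 ± 0.75 (SE), adjusted p = 5.91e-04). The kinase LCK was at 0.0546, 0.608 and 1.37 CPM and 0.377, 2.14 and 3.63 CPM, with overlap (log2 fold change 1.92 ± 0.49 (SE), adjusted p = 0.00210). A gene could pass the filter through the group in which it is high, so that the 5 that did not pass (GZMK, KLRD1, NKG7, PRF1 and TRAT1) belong to the account. NKG7 was at 0 in all 7 Ctrl and 5 of the 7 IR/CHT libraries. GZMK was at 0 in 5 Ctrl and 6 IR/CHT libraries, KLRD1 in 6 and 1, PRF1 in 5 and 2 and TRAT1 in 6 and 2. Of 10 neutrophil markers found 3 were tested. The 7 others were low in both groups. Their medians in Ctrl and IR/CHT were 0.387 and 0.162 CPM for CSF3R, 0.168 and 0.143 CPM for LTF, 0.0549 and 0 CPM for S100A12, 0 and 0.216 CPM for CXCR2, 0 and 0.208 CPM for CAMP and 0 in both for MPO, and MMP8 had no count in any library. S100A8, a calcium-binding protein of neutrophils and monocytes, had at most 3 counts in each Ctrl library and was at 0.269, 0.771 and 2.66 CPM in IR/CHT, at least 5.86-fold higher (adjusted p = 4.41e-04). CXCR1 rose (log2 fold change 2.13 ± 0.52 (SE), adjusted p = 0.00148), and S100A9 did not pass (log2 fold change 1.81 ± 0.78 (SE), adjusted p = 0.0544). DESeq2 called 4 neutrophil markers. Among B and plasma cell markers, JCHAIN rose and CR2 fell, with log2 fold changes of 2.38 and -3.13. Of the 2 mast cell markers tested, MS4A2, a chain of the IgE receptor, was higher (log2 fold change 3.61 ± 0.70 (SE), adjusted p = 1.26e-04), a call that was lost when only these 2 groups were fitted. It could pass the filter through IR/CHT alone. KIT, the other one tested, was not called. Of those found but not tested, CPA3 had no count in any library, and HDC was at 0, 0.111 and 0.993 CPM in Ctrl and 0.108, 0.364 and 0.959 CPM in IR/CHT.

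**Figure D2:**
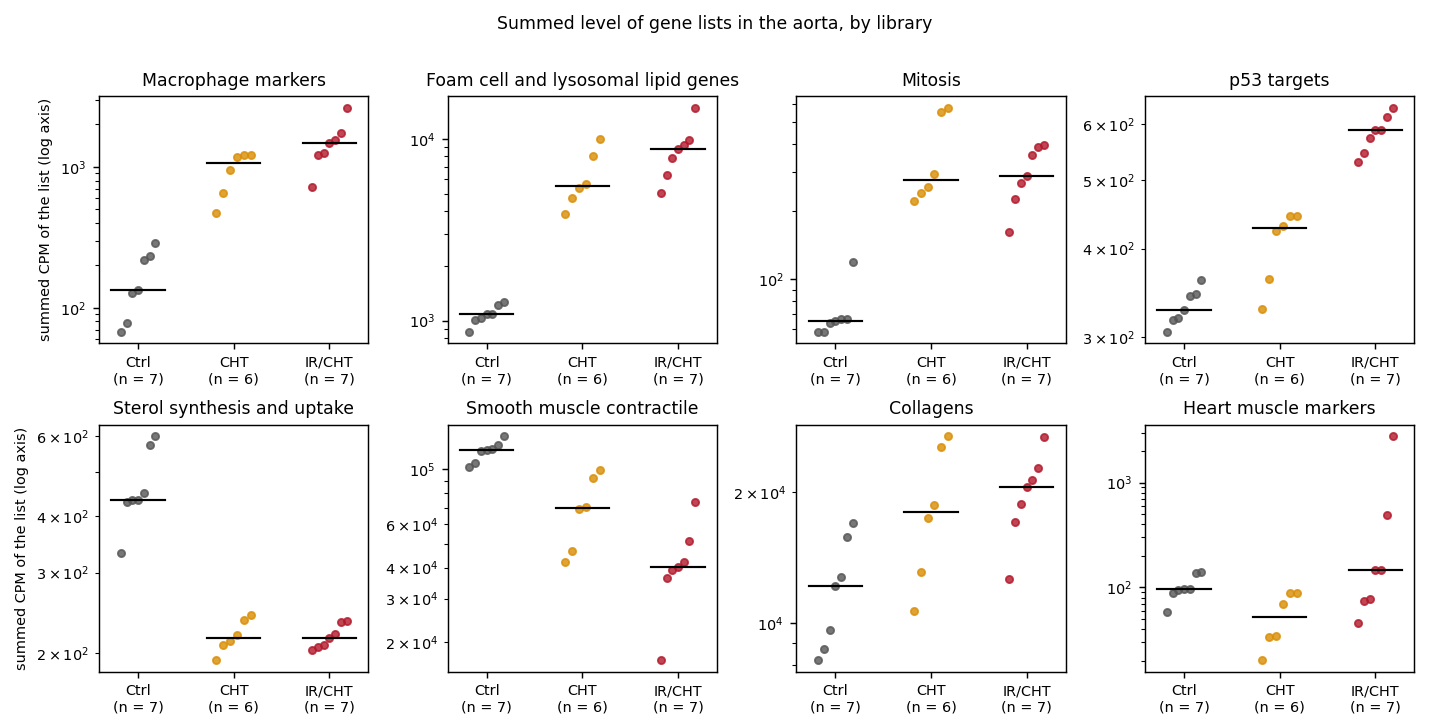
Summed level of 8 gene lists in each aorta library of the Ctrl, CHT and IR/CHT groups, in CPM on a log axis, with the median of each group as a line. Smooth muscle contractile genes lie lower and macrophage, foam cell, mitosis and p53 genes lie higher in all IR/CHT libraries than in any Ctrl library, while heart muscle markers overlap between the groups and are highest in L566 and L580.

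Genes of cell division were higher. Of 38 mitosis genes tested 36 rose, with a median log2 fold change of 2.95, and their summed level was 58.4, 65.7 and 119 CPM in Ctrl and 162, 288 and 393 CPM in IR/CHT. One Ctrl library, L569, stood apart from the other 6 but below the lowest IR/CHT library. NCAPH, a condensin subunit, was at 2.29, 4.32 and 6.01 CPM in Ctrl and 24.5, 49.8 and 76.9 CPM in IR/CHT (log2 fold change 3.52 ± 0.29 (SE), adjusted p = 5.80e-10). TOP2A, which untangles chromosomes before they separate, was at 2.21, 2.97 and 9.82 CPM and 11.7, 23.9 and 34.4 CPM (log2 fold change 2.54 ± 0.37 (SE), adjusted p = 4.49e-06). AURKA, a spindle pole kinase, had a log2 fold change of 3.77 ± 0.46 (SE), adjusted p = 3.18e-07. DNA replication genes rose in 16 of 25 cases, with the helicase subunits MCM2 (2.63) and MCM5 (2.41) and the ribonucleotide reductase subunit RRM2 (3.69) among them, whereas the sliding clamp PCNA was not called (log2 fold change 0.22 ± 0.17 (SE), adjusted p = 0.279). Of 23 DNA repair genes 9 rose (39.1%, beside 22.2% of all genes), and these included BRCA1 (1.64), which acts in homologous recombination. Genes of end joining, XRCC4, XRCC5, XRCC6 and LIG4, were not called, with log2 fold changes of 0.19, 0.34, 0.01 and -0.36, and ATM, the kinase that senses double-strand breaks, had -0.07 ± 0.09 (SE), adjusted p = 0.527.

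Targets of p53 had their highest summed level in IR/CHT. Of 20 tested, 14 rose against Ctrl and SPATA18 fell, a call lost without Ctrl L568, without IR/CHT L581, or without L566 and L580. The summed level of the list was 305, 328 and 362 CPM in Ctrl, 328, 427 and 444 CPM in CHT and 531, 587 and 633 CPM in IR/CHT, and the IR/CHT libraries overlapped with neither other group. EDA2R, a receptor of the TNF family, was at 1.29, 1.71 and 2.19 CPM in Ctrl, 4.53, 5.72 and 9.71 CPM in CHT and 9.97, 12.9 and 18.8 CPM in IR/CHT (log2 fold change against Ctrl 3.02 ± 0.35 (SE), adjusted p = 1.47e-07). PHLDA3, which restrains AKT, was at 1.27, 3.48 and 6.75 CPM in Ctrl, 1.24, 3.82 and 5.11 CPM in CHT and 5.23, 9.22 and 26.6 CPM in IR/CHT (log2 fold change against Ctrl 1.86 ± 0.41 (SE), adjusted p = 4.83e-04). DDB2, which recognises DNA damage for nucleotide excision repair, was at 12.3, 14.4 and 21.9 CPM, 14.1, 16.1 and 18.6 CPM and 22.1, 25.2 and 29.0 CPM in the same order (log2 fold change against Ctrl 0.66 ± 0.13 (SE), adjusted p = 1.57e-04). XPC, its partner in damage recognition, was at 87.6, 125 and 163 CPM, 109, 147 and 169.1 CPM and 197.2, 211 and 232.8 CPM (log2 fold change against Ctrl 0.77 ± 0.12 (SE), adjusted p = 6.66e-06). In these 4 genes, all 7 irradiated aortas exceeded all 6 CHT aortas. PHLDA3 and XPC were chosen for their values after these were seen. CDKN1A and MDM2, the best known targets, were not analysed here. Of 11 genes of senescence and its secretory products 9 rose, including the lysosomal galactosidase GLB1 (2.62) and the urokinase receptor PLAUR (4.78). The 9 also include LMNB1, the lamin that falls in senescent cells, which rose here (log2 fold change 1.67 ± 0.23 (SE), adjusted p = 1.65e-06). The summed level of this list overlapped between the groups, at 420, 667 and 989 CPM in Ctrl, 502, 1207 and 1438 CPM in CHT and 766, 1124 and 1506 CPM in IR/CHT.

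Of 26 smooth muscle contractile genes tested, 21 fell and none rose (median log2 fold change -1.27), and in 18 all IR/CHT libraries lay below all Ctrl libraries, beside 7.52% of all genes. Their summed level was 102049, 119350.0 and 136369 CPM in Ctrl, 42221, 69723 and 98971 CPM in CHT and 16846, 40281 and 73918 CPM in IR/CHT. The myosin MYH11 had a log2 fold change of -1.54 ± 0.26 (SE), adjusted p = 2.20e-05. ACTA2, smooth muscle alpha-actin, was at 9039, 11626 and 12697 CPM in Ctrl and 1095, 3134 and 6638 CPM in IR/CHT (log2 fold change -1.64 ± 0.26 (SE), adjusted p = 1.42e-05). MYOCD, the coactivator that drives the contractile genes, was at 339, 484 and 653 CPM and 52.7, 119 and 263.5 CPM (log2 fold change -1.80 ± 0.27 (SE), adjusted p = 6.44e-06). In all 3 the groups did not overlap. The 5 genes not called were DES, CASQ2, SMTNL2, LDB3 and ACTN1, some of which are also expressed in heart muscle. Ion channels and pumps of muscle fell in 12 of 20 cases. KCNMA1, the pore of the calcium-activated potassium channel, was at 404, 577.03 and 715 CPM in Ctrl and 79.6, 178.4 and 302 CPM in IR/CHT (log2 fold change -1.70 ± 0.21 (SE), adjusted p = 2.76e-07), and CACNA1C, the pore of the L-type calcium channel, was at 98.2, 189.3 and 213 CPM and 47.9, 80.2 and 109 CPM (log2 fold change -1.17 ± 0.19 (SE), adjusted p = 1.36e-05). Only the second overlapped, in its lowest Ctrl library. KCNJ2, an inward rectifier, rose, a call lost without L566.

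Over the 7 IR/CHT libraries, the summed level of contractile genes was lowest in the library with the highest macrophage markers, L566 (16846 and 2635 CPM), and highest in the one with the lowest, L579 (73918 and 719.6 CPM). Pearson's r of the log2 levels was -0.879 (exact permutation test over all pairings, two-sided, p = 0.0337, adjusted over 4 relations 0.0675) and Spearman's rank coefficient was -0.607. Without these 2 libraries r was 0.237, so the relation rests on them. The levels of macrophage and T cell markers went with each other, with r = 0.963 (exact permutation p = 0.00377, adjusted 0.0151) and Spearman's coefficient 0.893 (exact permutation p = 0.0123, adjusted 0.0492), and r was 0.658 without the same 2 libraries. The adjusted p was 0.1 without L565, 0.0722 without L566 and 0.0722 without L579, and that of Spearman's coefficient was between 0.0667 and 0.233 without any 1 library other than L580, and 0.0952 with mean log2 CPM in place of the sum. T cell markers summed to only 3.93 to 15.6 CPM. Mitosis genes (r = 0.679, exact permutation, adjusted p = 0.133) and fibrillar collagens (r = 0.53, exact permutation, adjusted p = 0.213) showed no relation to macrophage markers that passed the test.

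**Figure D3:**
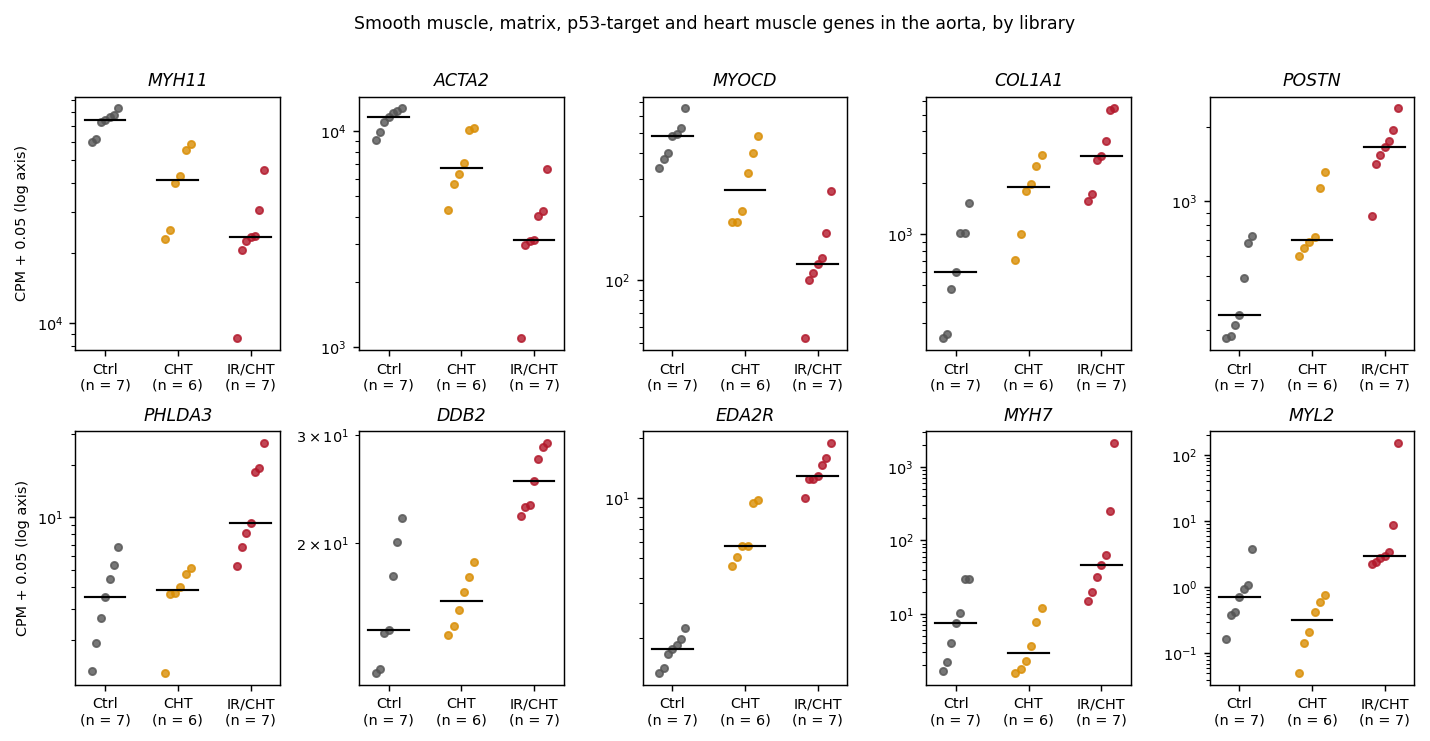
Level of 10 smooth muscle, matrix, p53 and heart muscle genes in each aorta library of the Ctrl, CHT and IR/CHT groups, on a log axis in CPM plus 0.05, with the median of each group as a line. MYH11, ACTA2 and MYOCD lie lower in all IR/CHT libraries than in any Ctrl library, and DDB2 and EDA2R lie higher in all IR/CHT libraries than in any library of the other groups.

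The extracellular matrix changed in both directions. Of 18 collagen genes tested 12 rose (66.7%, beside 22.2% of all genes) and COL21A1 fell (log2 fold change -1.17 ± 0.21 (SE), adjusted p = 5.75e-05). COL1A1, the main chain of type I collagen, was at 244.4, 600.4 and 1518 CPM in Ctrl and 1572, 2848 and 5459 CPM in IR/CHT (log2 fold change 2.18 ± 0.50 (SE), adjusted p = 8.32e-04). COL3A1, of type III collagen, did not pass, at 2922, 4335 and 8277 CPM and 3841, 5736 and 7712 CPM (log2 fold change 0.32 ± 0.25 (SE), adjusted p = 0.291). COL8A1, a short-chain collagen, was at 10.6, 12.2 and 19.0 CPM in Ctrl and 95.3, 197.3 and 351 CPM in IR/CHT (log2 fold change 4.11 ± 0.51 (SE), adjusted p = 3.68e-07). Of 21 elastic fibre genes 5 were higher (23.8%, beside 22.2% of all genes) and 7 lower (33.3%, beside 12.2%). The fibrillin FBN1 (-0.68), the fibulin FBLN5 (-1.37) and the microfibril proteins MFAP4 (-0.86) and MFAP5 (-1.46) fell, whereas the fibrillin FBN2 (3.47), one of the leaflet transcripts given above, and the prolyl hydroxylase subunit P4HA3 (4.45) rose. LOX, which cross-links elastin and collagen, was not called (log2 fold change -0.38 ± 0.23 (SE), adjusted p = 0.166).

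Proteoglycans and matricellular proteins were higher in 12 of 23 cases (52.2%, beside 22.2% of all genes) and lower in 5 (21.7%, beside 12.2%). TNC, a glycoprotein of injured tissue, was at 3.63, 11.6 and 16.5 CPM in Ctrl and 59.6, 96.8 and 199.6 CPM in IR/CHT (log2 fold change 3.41 ± 0.61 (SE), adjusted p = 5.34e-05). THBS1 (3.18), POSTN (1.90) and fibronectin FN1 (1.76) rose, while OGN (-1.13) and CCN3 (-1.48) fell. The abundant small proteoglycans DCN and BGN were not called, with log2 fold changes of -0.32 and 0.24. Of 19 metalloproteinases and inhibitors tested 11 rose (57.9%, beside 22.2% of all genes), and MMP16 fell, a call lost without L566. MMP9, a gelatinase, was at 0, 0.0561 and 0.384 CPM in Ctrl and 1.19, 4.17 and 61.0 CPM in IR/CHT (log2 fold change 7.02 ± 1.39 (SE), adjusted p = 1.65e-04), and its inhibitor TIMP1 was at 63.5, 73.6 and 109 CPM and 185.7, 290.5 and 450.1 CPM (log2 fold change 1.98 ± 0.29 (SE), adjusted p = 4.19e-06).

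Of 20 ossification genes tested 9 rose (45.0%, beside 22.2% of all genes) and 2 fell (10.0%, beside 12.2%), with a median log2 fold change of 0.50. RUNX2, the factor that commits cells to the osteoblast, was at 0, 0.170 and 0.783 CPM in Ctrl and 0.647, 2.55 and 4.68 CPM in IR/CHT (log2 fold change 3.40 ± 0.84 (SE), adjusted p = 0.00148). ALPL, the phosphatase that degrades the calcification inhibitor pyrophosphate, was at 0.109, 0.337 and 0.895 CPM and 1.401, 3.07 and 4.24 CPM (log2 fold change 2.78 ± 0.85 (SE), adjusted p = 0.00844). ACAN, the large proteoglycan of cartilage, was at 4.26, 8.52 and 34.3 CPM and 58.5, 92.2 and 205 CPM (log2 fold change 2.97 ± 0.65 (SE), adjusted p = 5.00e-04). ENPP1, which makes pyrophosphate, fell (log2 fold change -0.83 ± 0.14 (SE), adjusted p = 3.46e-05), as did the Wnt antagonist SOST (-1.06). BGLAP, which encodes osteocalcin, was not called (log2 fold change -0.53 ± 0.70 (SE), adjusted p = 0.546), nor was the calcification inhibitor MGP (-0.28).

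Endothelial genes were higher in 11 of 15 cases (median log2 fold change 1.72). VWF, which binds platelets to the vessel wall, was at 16.8, 24.3 and 34.5 CPM in Ctrl and 55.7, 296 and 612 CPM in IR/CHT (log2 fold change 3.59 ± 0.52 (SE), adjusted p = 3.60e-06). PECAM1 was at 19.6, 46.0 and 47.8 CPM and 52.6, 151.2 and 207 CPM (log2 fold change 1.98 ± 0.33 (SE), adjusted p = 2.15e-05), and NOS3, the endothelial nitric oxide synthase, at 1.22, 3.69 and 6.31 CPM and 3.45, 21.4 and 38.8 CPM (log2 fold change 2.63 ± 0.53 (SE), adjusted p = 2.11e-04). L579 had the lowest level of both among the IR/CHT libraries, apart from the other 6. The lymphatic marker LYVE1 fell (log2 fold change -0.91 ± 0.28 (SE), adjusted p = 0.00813). A second gene of lymphatic vessels, MMRN1, fell in the model of all aorta libraries (-1.03) but lost the call in several other models. Among angiogenic signals, VEGFA (2.03), PGF (2.31) and the receptor NRP1 (1.42) rose and VEGFC (-0.84), the growth factor of lymphatic vessels, fell, and 8 of 20 rose (40.0%, beside 22.2% of all genes) and 3 fell in all (15.0%, beside 12.2%), 1 fell without L566.

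Without L566 and L580, 13 of the 14 macrophage markers, 19 of the 21 foam cell genes, 13 of the 14 interferon-induced genes, 36 of the 38 mitosis genes, 14 of the 20 p53 targets, 12 of the 18 collagens and 11 of the 15 endothelial genes were higher. Lower were 11 of the 18 sterol genes, 22 of the 26 contractile genes and 12 of the 20 ion channel genes. For these lists, leaving out any single library moved the count in the direction named by less than 1.5 times.

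**Figure D4:**
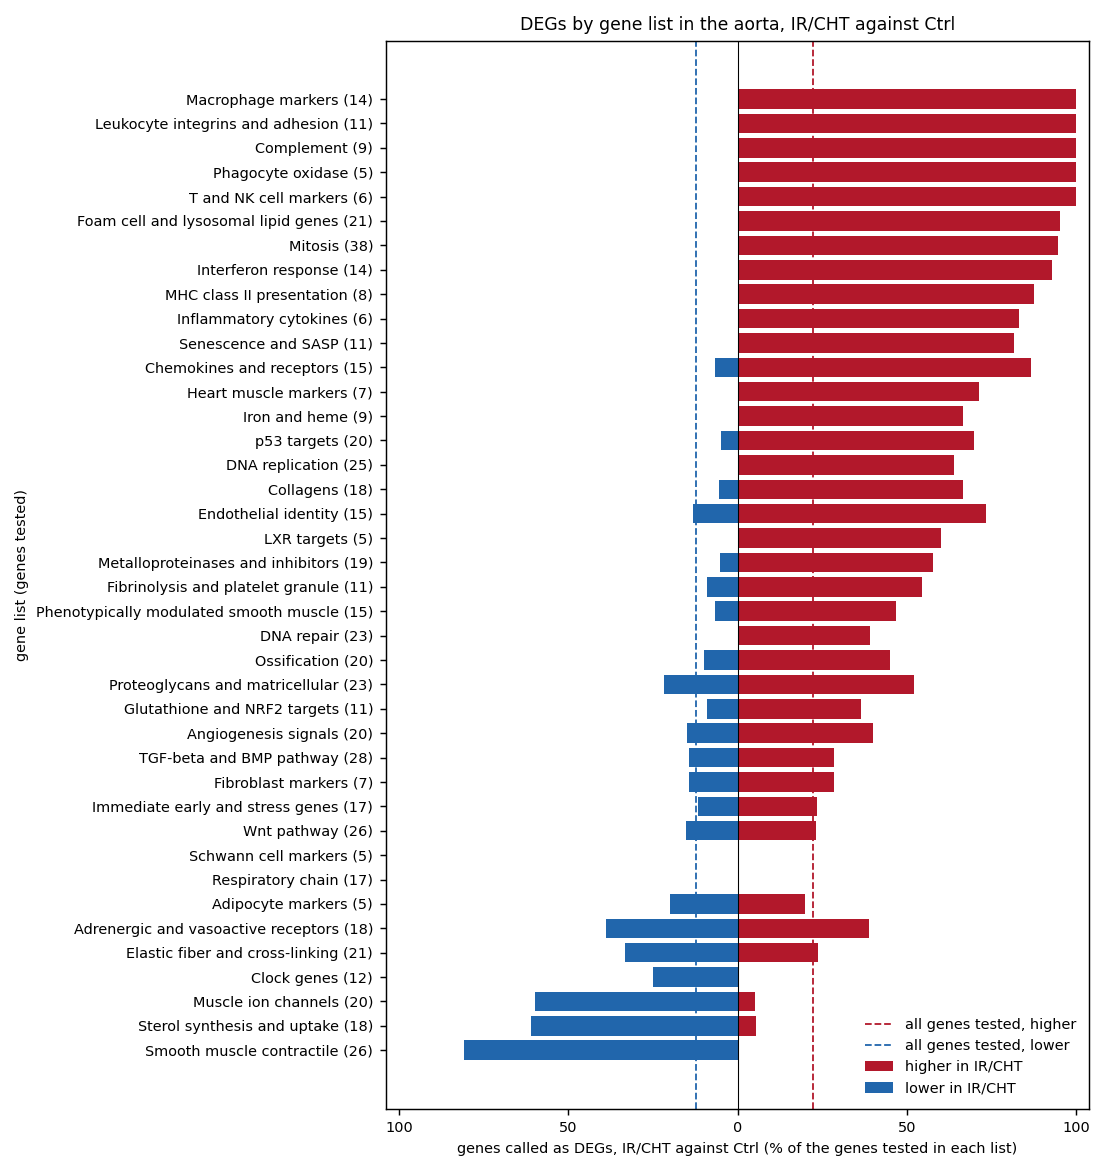
Number of genes called higher and lower in IR/CHT than in Ctrl aorta for the gene lists, as a percentage of the genes tested in each list. Lists with few genes tested (neutrophil, B and plasma cell, red blood cell, mesothelium and mast cell markers) and the valve leaflet list are not shown. Vertical lines give the percentages over all genes tested, 22.2% higher and 12.2% lower.

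Against CHT aortas, which had the same diet and no irradiation, few genes differed. Of the 14777 genes, 24 were higher (0.162%) and 64 lower (0.433%) in IR/CHT, 0.596% together, and 3370 (22.8%) had an unadjusted p under 0.05. These counts depended on single libraries. Without L566 none was higher and 4 lower, without CHT L560 none and 2, and without L579 661 genes were called in either direction. As a share of the same 14777 genes, the calls without one of the others came to 1.04% (CHT L559), 0.386% (CHT L561), 0.210% (CHT L573), 0.203% (L565), 0.257% (L567), 0.365% (L581) and 0.305% (L582), all more than 1.5 times from 0.596%, and within 1.5 times of it to 0.704% (L580), 0.866% (CHT L572) and 0.778% (CHT L574). DESeq2 made calls equal to 3.93% of that number of genes, and 342 of its calls (58.9%) were higher, against 27.3% of the calls by edgeR, so that the balance of directions turned. Of the 5 named genes that were higher, 4 were MYH7, MYL2, MYOM2 and MYL4 of heart muscle, and their calls were lost without L566. The other was DDB2 (log2 fold change 0.65 ± 0.14 (SE), adjusted p = 0.0288). Its log2 fold change stayed between 0.62 and 0.70 over 18 alternatives and was called in 13 of them. Over the p53 list, 2 of 20 genes were called (DDB2 and PHLDA3), of which PHLDA3 was called in 7 of the 18 alternatives and neither was without L566, and in 6 of 20 all IR/CHT libraries exceeded all CHT libraries, beside 0.365% of all genes. The median log2 fold change of the list against CHT was 0.55.

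The 5 named genes lower in IR/CHT than in CHT were STARD13, PDE3A, RASL11A, GPC4 and SLITRK3. STARD13, a GTPase-activating protein, was at 185.99, 202 and 238.03 CPM in CHT and 84.7, 111 and 151.1 CPM in IR/CHT (log2 fold change -0.83 ± 0.11 (SE), adjusted p = 9.77e-04). PDE3A, a phosphodiesterase of cyclic AMP in vascular muscle, was at 196.4, 228.6 and 255 CPM and 69.9, 117 and 146 CPM (log2 fold change -0.97 ± 0.15 (SE), adjusted p = 0.00373). Both were called in all 18 alternatives. Of the smooth muscle contractile list 2 of 26 genes were called lower, MYOCD (log2 fold change -1.16 ± 0.28 (SE), adjusted p = 0.0432) and ACTG2 (log2 fold change -1.04 ± 0.25 (SE), adjusted p = 0.0419), and these calls were kept in 7 and 8 of the 18 alternatives. Macrophage markers had none called, with a median log2 fold change against CHT of 0.69. All 14 had a positive log2 fold change against CHT, as had all 21 foam cell genes, beside 51.7% of all genes. In only 1 gene of each of these 2 lists did all IR/CHT libraries exceed all CHT libraries. Genes of a list were measured in the same libraries, so their signs are not separate observations. Positive were also 7 of 38 mitosis genes (median -0.26), 5 of 26 contractile genes and 8 of 18 sterol genes. ABCA1 differed by 0.13 ± 0.18 (SE), adjusted p = 0.672, and its levels in CHT, 608, 710.4 and 1122 CPM, overlapped those in IR/CHT. FDFT1 had a log2 fold change against CHT of -0.49 ± 0.20 (SE), adjusted p = 0.154.

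The aortic valve lay in the same irradiated field, and its response to IR/CHT was set against that of the aorta in one model of both tissues. Of 16125 genes tested, 1787 (11.1%) had a higher and 3502 (21.7%) a lower log2 fold change in the valve than in the aorta, 32.8% together, at an adjusted p-value under 0.05. The median difference over all genes was -0.29, and -0.196 with DESeq2's size factors, under which 2358 and 3124 genes were called. With the libraries of plate 2 alone, which hold 4 of the 7 Ctrl and 3 of the 7 IR/CHT valve libraries, 775 and 1569 genes were called. With the rabbit as a replicate block 2029 and 3657 were called.

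The next 5 genes were named because they rank first by p-value for a smaller fold change in the valve than in the aorta. TBX20, a transcription factor of valve development, was at 4.89, 7.31 and 12.03 CPM of total counts in the Ctrl aorta and 19.6, 35.3 and 52.8 CPM in the IR/CHT aorta, but at 333, 391 and 604 CPM in the Ctrl valve and 29.8, 79.9 and 108 CPM in the IR/CHT valve (difference of log2 fold changes -4.64 ± 0.44 (SE), adjusted p = 3.20e-11). FBN2 was at 0.675, 2.55 and 3.69 CPM and 17.4, 28.9 and 48.8 CPM in the aorta and at 135, 252 and 417 CPM and 14.9, 45.5 and 85.0 CPM in the valve (difference -5.81 ± 0.43 (SE), adjusted p = 2.12e-14). The Wnt agonist RSPO2 was at 0, 0.266 and 0.571 CPM and 5.26, 6.54 and 11.4 CPM in the aorta and at 41.3, 63.4 and 96.0 CPM and 6.31, 13.5 and 30.5 CPM in the valve (difference -6.63 ± 0.61 (SE), adjusted p = 2.30e-11). All 3 belong to the leaflet transcripts that were higher in the IR/CHT aortas, and the part of leaflet tissue was not tested. These genes were higher in the IR/CHT than the Ctrl aorta and lower in the IR/CHT than the Ctrl valve. In models of each tissue alone, AKAP7, an anchor of protein kinase A, and the protease ADAMTS3 fell in the valve (log2 fold changes -1.78 and -2.87) and were at 0.42, which missed the fold threshold, and 0.64 in the aorta.

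In the other direction, ANO4, a membrane protein of the anoctamin family, was at 39.2, 47.9 and 64.9 CPM of total counts in the Ctrl aorta and 84.3, 138 and 160.6 CPM in the IR/CHT aorta, and at 0.358, 0.879 and 1.71 CPM in the Ctrl valve and 184.7, 262.4 and 307 CPM in the IR/CHT valve (difference of log2 fold changes 6.78 ± 0.37 (SE), adjusted p = 1.09e-19). BICD1, a dynein adaptor, rose by 4.32 on the log2 scale in the valve and was not called in the aorta (log2 fold change -0.22 ± 0.20 (SE), adjusted p = 0.373). CCN3, a matricellular protein, fell in the aorta and rose in the valve, with log2 fold changes of -1.48 and 2.78 (difference 4.11 ± 0.37 (SE), adjusted p = 1.67e-11). PPM1H, a phosphatase, rose in both, by 0.98 and 4.48. The channel PANX1 rose in the valve by 1.91 and in the aorta missed the fold threshold at -0.40. In the chow groups, the median level of all 5 genes was lower in the valve than in the aorta.

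**Figure D5:**
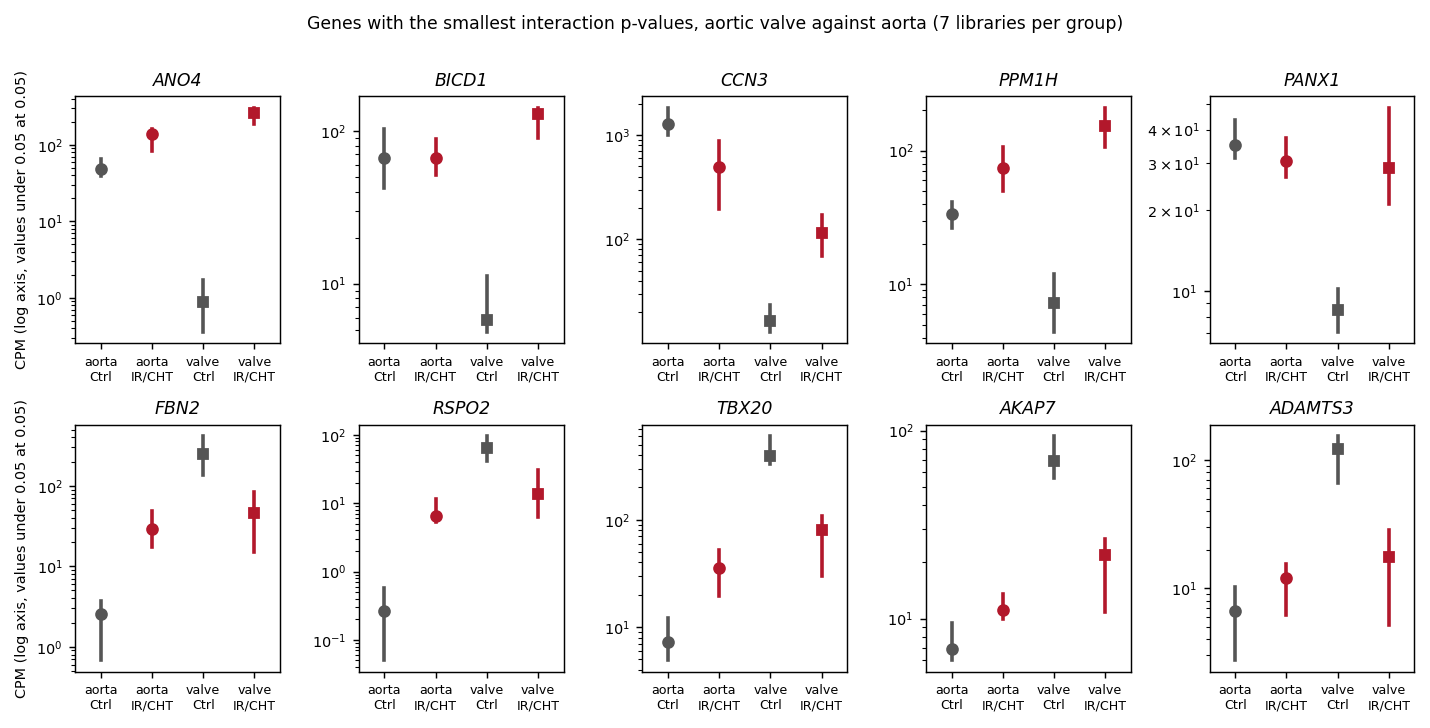
Level of 10 genes in the aorta (circles) and aortic valve (squares) of the Ctrl and IR/CHT groups, in CPM of total counts on a log axis, as the median with a line from the lowest to the highest of 7 libraries. The upper 5 genes lie lowest in the Ctrl valve, and the lower 5 lie highest in it.

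Of the lists, smooth muscle contractile genes differed between the tissues in 14 of 26 cases, 10 with a higher log2 fold change in the valve and 4 with a lower one. Foam cell genes differed in 12 of 21 cases, 11 with a higher log2 fold change in the valve and 1 with a lower one. Of the 20 p53 targets tested in this model, 3 had a higher and 6 a lower log2 fold change in the valve, beside 11.1% and 21.7% of all genes. Macrophage markers had a lower log2 fold change in the valve in 5 of 14 cases and a higher one in none.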

How the data were processed

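Aorta rings were snap frozen at 16 weeks. Libraries were made from 10 ng of RNA with the SMARTer Stranded Total RNA-Seq Pico v2 kit. The authors mapped the reads to the rabbit genome OryCun2.0 with the nf-core/rnaseq pipeline and deposited raw counts per Ensembl gene, without normalization and without pooling of replicates, in 1 table per plate. The paper reports the defaults of this pipeline apart from read trimming. It does not name the strand setting of the counting, so overlapping and antisense genes are uncertain. Groups and tissues come from the sample labels, plates from the name under which the counts were deposited, and rabbits from the number in the library name.

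Counts were analysed in R 4.3.3 with edgeR 4.0.16. The filter filterByExpr kept the genes tested, TMM gave the library scales, and a robust quasi-likelihood fit took in the 27 aorta libraries of 4 treatments (Ctrl, CHT, Lard and IR/CHT). P-values were two-sided, adjusted by Benjamini-Hochberg over all genes tested, and SE is the log2 fold change divided by the root of F. The interaction model held the 54 aorta and aortic valve libraries, with 1 coefficient per combination of tissue and treatment, and its differences were called at the adjusted p-value alone. Levels are CPM on TMM-scaled library sizes unless given as CPM of total counts. A group with at most 3 counts in every library was treated as a floor. In the check of pairing by rabbit, deviations from the group means correlated with a median r of 0.209 over 14 rabbits with both tissues (11 above 0.1) and -0.0457 otherwise.

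The 45 gene lists held 878 symbols, of which 646 were found in the tables, and the others were not analysed here. The comparison, the lists and the rules for naming genes were chosen with earlier results of these data known, and 1 further list (valve leaflet) was added. Named genes are the DEGs against Ctrl that have a symbol and rank first by p-value (10 higher, 10 lower), 5 and 5 against CHT, 5 and 5 in the interaction, the first 2 in each direction of each list, and anchor genes of each list. Other members are named to complete a list's account, after their values were seen. DESeq2 1.42.0, its size factors, no filter, the compared groups alone, a test against the fold threshold, the rabbit as a block, plate 2 alone and leaving out each library were tried as alternatives. The scripts were tested on simulated data. No 2 libraries held identical counts.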

Additional observations from a re-analysis of the deposited data

Results flagged for a closer look

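In the groups of 7 libraries, 468 sets of values (named genes, summed gene lists and total counts, each within Ctrl and within IR/CHT) were searched for a highest or lowest library far from the rest by Dixon's ratio on log2 values, and 30 had one, where chance flags about 1 in 20. Of the IR/CHT libraries, L579 stood apart 6 times, always low: in the summed endothelial genes (370.0 CPM), PECAM1 (52.6 CPM), NOS3 (3.45 CPM), IL1B (0.108 CPM), MCM2 (11.5 CPM) and MS4A2 (0.0539 CPM). L566 stood apart 5 times, high in LY86 (29.2 CPM) and in the heart muscle gene MYL2 (152.4 CPM), and low in DZIP1 (33.3 CPM), ENPP1 (35.7 CPM) and JAG1 (99.7 CPM). L582 was apart in LYVE1 (13.3 CPM) and VEGFC (5.67 CPM), and L567 in ADAMTS3 (5.78 CPM).

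Of the Ctrl libraries, L552 stood apart in LY86 (0 CPM), COL8A1 (19.0 CPM), TNC (3.63 CPM), SLC11A1 (2.24 CPM) and NR1D2 (112 CPM). L569 was apart in the summed mitosis genes (119 CPM), RRM2 (3.84 CPM), ABCA1 (42.7 CPM) and MFAP5 (131 CPM). L551 was apart in STARD13 (141 CPM), TIMP1 (109 CPM) and CACNA1C (98.2 CPM), L570 in CCL5 (0.109 CPM) and EDN1 (1.26 CPM), L568 in CD300LF (0.0553 CPM) and L571 in CACNA2D1 (126 CPM). Values under 0.2 CPM are 3 counts or fewer.

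Between the tissues, the log2 fold change of IR/CHT against Ctrl was higher in the aortic valve than in the aorta in 1787 genes and lower in 3502 (edgeR's quasi-likelihood test of the interaction). By size, the differences of the named genes were 6.78 for ANO4, 4.39 for BICD1, 4.11 for CCN3, 3.36 for PPM1H and 2.18 for PANX1, -6.63 for RSPO2, -5.81 for FBN2 and -4.64 for TBX20 (leaflet transcripts), and -3.63 for ADAMTS3 and -2.34 for AKAP7. Beside 32.8% of all genes, the interaction was called in 12 of 21 foam cell genes, 14 of 26 smooth muscle contractile genes, 13 of 23 proteoglycans and matricellular genes, 8 of 15 endothelial genes, 11 of 20 angiogenesis signals, 19 of 29 genes of the TGF-beta and BMP pathway, 16 of 27 genes of the Wnt pathway and 12 of 17 respiratory chain genes. Called here means an adjusted p under the threshold in either direction. The valve libraries came from both plates and the aorta libraries from plate 2 only, and the summed leaflet genes of the aorta differed between the groups, as given above. The part of either in these differences was not tested.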

How the results depend on the processing

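The count of 5070 DEGs in IR/CHT against Ctrl was 4390 to 5548 when 1 library was left out, and within 1.5 times the main count under every alternative run except the test against a fold change of 1.5 (2822), which is stricter by construction. Against CHT, 0.596% of the genes were called. As a share of the same number of genes, the calls became 0.359% without a filter on low counts, 0.162% with only the compared groups, 3.93% by DESeq2, 0.0135% to 4.47% with 1 library left out and 0.0271% without L566 and L580, a setting chosen after seeing the data. The cause was not tested. In the interaction, the 5289 genes became 2344 with plate 2 alone, which holds fewer valve libraries, and 4308 to 6114 with 1 library left out. With the rabbit as a replicate block, 2029 genes were higher and 3657 lower in the valve, so the pairing moved neither count by over 1.5 times. In the comparisons within the aorta each rabbit gave 1 library, so no pairing applied. The relation of macrophage and T cell markers had r from 0.911 to 0.986 with 1 library left out, and lost its call without L565 (0.962), L566 (0.936) and L579 (0.911). With 1 library left out, r ranged from -0.920 to -0.763 for contractile genes, 0.218 to 0.854 for mitosis genes and -0.248 to 0.715 for fibrillar collagens.

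Over the named genes tested and 3943 values under alternatives, 3802 kept their side of the threshold, 131 lost the call, 10 gained one and none that was called reversed. Among the values not called, 1 changed sign. At least once, 36 genes lost their call. Of 1890 list counts, 105 moved by over 1.5 times. At 1 CPM, counting alone gives an SD of 24.3% in the smallest library and at 10 CPM 7.69%. Replicates are different rabbits, but 10 ng of input and 1 ring per rabbit leave technical and biological spread together.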

Other observations

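Other gene groups of the vessel wall also held calls between IR/CHT and Ctrl, to be read beside 22.2% of all genes higher and 12.2% lower. Of 9 iron and heme genes tested 6 rose, among them HMOX1, which degrades heme, at 1.16, 3.03 and 4.14 CPM in Ctrl and 16.4, 43.9 and 112 CPM in IR/CHT (log2 fold change 4.23 ± 0.42 (SE), adjusted p = 1.22e-08), and the ferritin light chain FTL (3.02). In the vasoactive group, 7 of 18 rose and 7 fell. EDN1, the constrictor peptide endothelin-1, was at 1.26, 2.47 and 3.07 CPM and 6.84, 23.5 and 82.2 CPM (log2 fold change 3.79 ± 0.54 (SE), adjusted p = 2.57e-06). The alpha-1 adrenergic receptor ADRA1A was at 13.2, 25.2 and 34.4 CPM and 1.96, 5.62 and 9.38 CPM (log2 fold change -2.12 ± 0.32 (SE), adjusted p = 5.47e-06), and the serotonin receptor HTR2A fell (-1.27). In fibrinolysis, 6 of 11 rose and 1 fell, with urokinase PLAU at 16.2, 25.2 and 30.6 CPM and 60.3, 94.0 and 143 CPM (log2 fold change 1.98 ± 0.20 (SE), adjusted p = 1.40e-08).

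Signalling lists were closer to the background. In the TGF-beta and BMP pathway 8 of 28 rose and 4 fell, and BMP6 (5.16) rose while its receptor BMPR1A (-1.04) fell. In the Wnt pathway 6 of 26 rose and 4 fell, with LEF1 (4.40), one of the leaflet transcripts, higher, the co-receptor LRP6 (-0.73) lower and the feedback gene AXIN2 not called (-0.44). Of glutathione and NRF2 genes 4 of 11 rose and 1 fell, with CAT at 1.13, SOD1 at -0.73 and GCLC not called (0.09). None of 17 respiratory chain genes was called (edgeR), with a median of -0.08. Of 12 clock genes 3 fell, with HLF at -1.34. Of 17 immediate early and stress genes 4 rose and 2 fell (23.5% and 11.8%, beside 22.2% and 12.2% of all genes), and the fall was not called for either gene without Ctrl L571 or IR/CHT L580. Of markers of phenotypically modulated smooth muscle 7 of 15 rose and 1 fell. Among markers of other cell types, 2 of 7 rose and 1 fell for fibroblasts, 1 of 5 rose and 1 fell for adipocytes, 0 of 3 rose and 1 fell for red blood cells, 0 of 3 rose and 1 fell for mesothelium and 0 of 5 rose and 0 fell for Schwann cells. The calls of LIPE, ALAS2 and LRRN4 in these lists were lost when single libraries were left out, and the other calls were LUM (1.19), COL1A1 (2.18) and MFAP5 (-1.46) in the fibroblast list and, in the adipocyte list, CIDEA (-1.37).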
